A study of Mus musculus with 12 samples.

Results

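The urea cycle and periportal nitrogen genes are described here in mouse liver over 4 groups that differ in genotype and diet. The set has 10 genes, listed by symbol, and the list was chosen with earlier results of these data known. It holds Nags, Cps1, Otc, Ass1, Asl, Arg1, the mitochondrial carriers Slc25a15 and Slc25a13, the liver glutaminase Gls2 and the glutamate dehydrogenase Glud1. All 10 were found among the 55357 genes of the count table, and all 10 are among the 17358 genes that passed the filter on low counts and were tested. Liver RNA of 12 male C57BL/6J mice was sequenced, and each library was taken as 1 mouse. Every mouse carried floxed Ppara alleles (PPARα fl/fl). KO mice also carried 1 copy of a Cre transgene driven by the albumin promoter, which is active in hepatocytes, so that other liver cells keep PPARα. WT mice had no Cre. Mice received chow or CDAHFD, a choline-deficient diet with defined L-amino acids and a high fat content, from 7 weeks of age for 6 weeks, and livers were taken at 13 weeks. WT chow had 4 libraries, WT CDAHFD 3, KO chow 2 and KO CDAHFD 3, whereas the methods state equal groups of 3 mice.

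The urea cycle disposes of ammonia and is run by periportal hepatocytes, those near the vessels that bring blood into the liver lobule. In mitochondria, NAGS makes N-acetylglutamate, the obligate activator of CPS1, which fixes ammonia as carbamoyl phosphate. OTC joins this to ornithine to give citrulline, which leaves the mitochondrion, and ASS1, ASL and ARG1 turn it in the cytosol into urea and ornithine. SLC25A15 exchanges ornithine and citrulline across the inner membrane, SLC25A13 brings out aspartate for ASS1, and GLS2 and GLUD1 release ammonia from glutamine and glutamate. Pericentral hepatocytes, around the draining vein, capture ammonia that escapes by making glutamine with GLUL.

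RefSeq promoter sequences, running from 250 bases before to 50 bases after a start site, were at hand for 6 of the 10 genes (Ass1, Slc25a13, Slc25a15, Nags, Glud1 and Otc, with 2 windows for Slc25a15). The 250 bases before the start sites of Nags and Slc25a13 are printed since these were the windows that held any of the motifs searched. They lie on GRCm38.p6 at chr11:102145263-102145512 on the forward strand and at chr6:6217174-6217423 on the reverse strand. Capitals mark matches, on either strand, to TGACG (the core of the cyclic AMP response element), AGGTCA (a nuclear receptor recognition motif) and CCAAT.
Nags: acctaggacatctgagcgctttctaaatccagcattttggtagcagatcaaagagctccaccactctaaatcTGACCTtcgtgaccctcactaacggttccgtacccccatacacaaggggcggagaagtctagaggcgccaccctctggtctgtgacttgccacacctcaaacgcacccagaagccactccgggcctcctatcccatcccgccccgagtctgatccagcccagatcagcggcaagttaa
Slc25a13: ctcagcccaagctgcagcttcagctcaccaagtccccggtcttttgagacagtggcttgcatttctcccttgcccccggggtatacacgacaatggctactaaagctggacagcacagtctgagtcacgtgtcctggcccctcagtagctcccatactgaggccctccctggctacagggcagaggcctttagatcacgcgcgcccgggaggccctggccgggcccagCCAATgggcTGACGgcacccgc
Nags had AGGTCA at base -178, on the opposite strand, and a TGACG at base +32 that lies past the stretch printed. Slc25a13 had CCAAT at base -22 and TGACG at base -13. Of all 32851 windows, 16.3% held AGGTCA, 37.4% CCAAT and 20.8% TGACG. The full element TGACGTCA, which contains TGACG, was in 1.79% of all windows and the TATAAA motif in 13.6%, and neither was in any of the 7 windows of these genes. A match is a description of letters and not evidence of binding.

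The 10 genes were lower in all 3 other groups than in WT chow, by different amounts. In WT CDAHFD, all 10 were called lower at an adjusted p under 0.05, with a median log2 fold change of -1.17, and 25.0% of all genes tested were called lower. In KO CDAHFD, 9 of the 10 were called lower, again with a median of -1.17, beside 25.4% of all genes. In KO chow, 6 of the 10 were called lower with a median of -0.56, beside 17.0% of all genes. The median over all genes tested was between -0.05 and 0.01 in these comparisons. None of the 10 was called higher, whereas 22.0% of all genes in KO chow were, as were 26.1% in WT CDAHFD and 26.9% in KO CDAHFD. These 3 comparisons share the WT chow libraries. Counts of mitochondrially encoded genes, which can vary with RNA quality, were 5.20 to 6.46% of all counts in the WT chow libraries and 3.33 to 4.51% in those of the other groups, without overlap, and the part of this difference in the fall of the 10 genes was not tested.

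**Figure D1:**
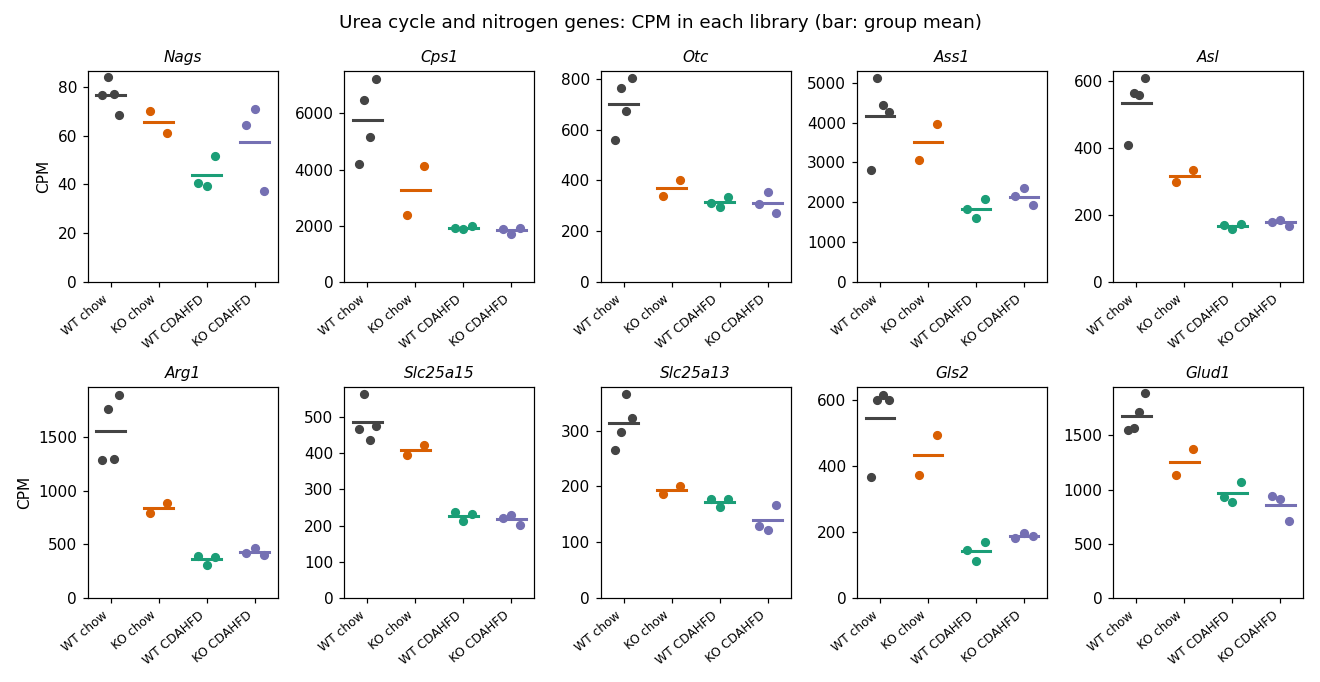
Level of each of the 10 genes in CPM (counts scaled to library size by TMM, y axis from 0) in the 12 libraries; each point is a library and each bar a group mean. The WT chow points lie above those of both CDAHFD groups in every panel except Nags, where KO CDAHFD reached 71.0 CPM and the lowest WT chow library had 68.5 CPM. How many of all genes tested separate in this way was not counted.

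Total counts ran from 29906785 to 43551003 per library, and the 10 genes had between 26758 (Nags) and 1388203 counts (Cps1) over the 12 libraries, so counting error is small for them. TMM factors, which scale the library sizes, were 0.729 to 0.827 in WT chow and 1.03 to 1.26 in the other groups. Ppara, whose deletion defines the KO, had 96.2 to 237.8 CPM in WT chow, 59.5 to 75.5 CPM in WT CDAHFD, 14.4 and 38.7 CPM in KO chow and 20.7 to 51.9 CPM in KO CDAHFD, so the KO libraries lay below every WT library. WT chow replicate 1 had the lowest summed level of the 10 genes among the WT chow libraries, 11970 CPM against 15320 to 18160 CPM in the other 3. It also stood low for Gls2. A clock score, the mean log2 CPM of night-phase clock genes less that of day-phase ones, was 4.25, 3.52, -2.85 and -2.75 in the WT chow libraries and differed within KO chow and KO CDAHFD too. The time of collection is not in the labels. The part of the clock phase in the results was tested only by fits with the score as a covariate or with libraries of a score above 0. Their outcomes are given mostly with the other processing alternatives.

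Cps1 (chromosome 1 from 67123026 to 67231259, positions on GRCm38 from GENCODE M21), the first enzyme of the cycle, had 4186, 6494, 5147 and 7244 CPM in WT chow. It had 1910, 1893 and 1979 CPM in WT CDAHFD and 1888, 1697 and 1918 CPM in KO CDAHFD. KO chow held 2394 and 4135 CPM. The CDAHFD libraries were close to each other and far below WT chow, while the 2 KO chow libraries differed widely and both lay below WT chow. The log2 fold change from WT chow was -1.58 ± 0.21 (SE) in WT CDAHFD (adjusted p = 5.00e-05), -1.65 ± 0.21 in KO CDAHFD (adjusted p = 3.27e-05) and -0.82 ± 0.24 in KO chow (adjusted p = 0.0156). Without KO chow replicate 1, Cps1 had a log2 fold change of -0.46 in KO chow and lost its call (adjusted p = 0.212).

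Nags (chromosome 11 from 102145513 to 102149477), which supplies the activator of CPS1, had the smallest difference of the 10 in both KO groups, and in WT CDAHFD only Glud1 had a smaller one. It had 76.7, 84.2, 76.9 and 68.5 CPM in WT chow, 70.1 and 61.0 CPM in KO chow, 40.4, 39.3 and 51.5 CPM in WT CDAHFD and 64.2, 71.0 and 37.1 CPM in KO CDAHFD. WT CDAHFD lay below WT chow in every library, whereas KO chow and KO CDAHFD each had a library within the WT chow range. Nags was called lower in WT CDAHFD (-0.81 ± 0.19, adjusted p = 0.00331) and was not called in KO CDAHFD (-0.41 ± 0.19, adjusted p = 0.0809) or KO chow (-0.22 ± 0.21, adjusted p = 0.435). Without KO CDAHFD replicate 2, the highest of its group, the Nags value of KO CDAHFD was -0.59 and passed (adjusted p = 0.0284). With the clock score as a covariate all 10 genes, and so Nags, were called lower in KO CDAHFD. Of all genes, 57.1% were then called in either direction.

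Otc (chromosome X from 10252305 to 10321024), the citrulline-forming enzyme, had 558.4, 764.0, 671.9 and 804.5 CPM in WT chow. It had 339.6 and 401.5 CPM in KO chow, 311.2, 294.5 and 335.8 CPM in WT CDAHFD and 305.4, 355.8 and 271.1 CPM in KO CDAHFD. All 8 libraries of the other groups lay below WT chow, and KO chow was near the CDAHFD groups. Otc was called lower in KO chow (-0.92 ± 0.17, adjusted p = 8.61e-04), WT CDAHFD (-1.16 ± 0.15, adjusted p = 2.90e-05) and KO CDAHFD (-1.17 ± 0.15, adjusted p = 2.42e-05).

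In the cytosol, Ass1 (chromosome 2 from 31470207 to 31520672), which makes argininosuccinate, had 2806, 5125, 4430 and 4268 CPM in WT chow and 3067 and 3959 CPM in KO chow. WT CDAHFD held 1836, 1612 and 2073 CPM, and KO CDAHFD 2145, 2350 and 1929 CPM. KO chow overlapped WT chow, and the CDAHFD groups did not. Ass1 was called lower in WT CDAHFD (-1.18 ± 0.19, adjusted p = 2.50e-04) and KO CDAHFD (-0.96 ± 0.19, adjusted p = 0.00104) and not in KO chow (-0.24 ± 0.21, adjusted p = 0.398).

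Asl (chromosome 5 from 130011258 to 130029247), which splits argininosuccinate, had 410.1, 565.8, 559.8 and 609.5 CPM in WT chow, 297.7 and 335.4 CPM in KO chow, 170.8, 158.4 and 173.8 CPM in WT CDAHFD and 180.0, 186.7 and 168.4 CPM in KO CDAHFD. KO chow stood between WT chow and the CDAHFD groups with no overlap on either side. Asl was called lower in KO chow (-0.76 ± 0.15, adjusted p = 0.0016), WT CDAHFD (-1.68 ± 0.14, adjusted p = 6.71e-07) and KO CDAHFD (-1.59 ± 0.14, adjusted p = 9.38e-07).

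Arg1 (chromosome 10 from 24915221 to 24927484), the arginase that releases urea, fell most in both CDAHFD groups, whereas Otc had the largest fall in KO chow. It had 1283, 1755, 1298 and 1884 CPM in WT chow, 792.2 and 884.8 CPM in KO chow, 396.5, 311.4 and 387.3 CPM in WT CDAHFD and 424.4, 463.6 and 405.4 CPM in KO CDAHFD. The order of the groups was as for Asl, again without overlap between WT chow, KO chow and the CDAHFD groups. WT CDAHFD was at 0.235 of the WT chow level (-2.09 ± 0.17, adjusted p = 5.51e-07), KO CDAHFD at 0.277 (-1.85 ± 0.16, adjusted p = 1.26e-06) and KO chow at 0.539 (-0.89 ± 0.18, adjusted p = 0.0019). Arg1 is also made by some macrophages, whose markers rose in the same libraries in which Arg1 was low.

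Of the carriers, Slc25a15 (chromosome 8 from 22375551 to 22398597), the ornithine carrier, had 466.9, 563.5, 436.6 and 474.6 CPM in WT chow and 394.5 and 422.8 CPM in KO chow. It had 237.1, 211.8 and 233.0 CPM in WT CDAHFD and 220.0, 228.9 and 202.1 CPM in KO CDAHFD. The CDAHFD libraries lay far below the others. It was called lower in WT CDAHFD (-1.10 ± 0.11, adjusted p = 4.68e-06) and KO CDAHFD (-1.16 ± 0.11, adjusted p = 2.63e-06), and KO chow was lower in both libraries without passing (-0.25 ± 0.12, adjusted p = 0.132).

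Slc25a13 (chromosome 6 from 6041218 to 6217173), the aspartate and glutamate carrier, had 265.9, 298.1, 365.9 and 323.2 CPM in WT chow, 187.1 and 201.1 CPM in KO chow, 177.7, 163.2 and 178.1 CPM in WT CDAHFD and 130.1, 122.2 and 166.9 CPM in KO CDAHFD. KO chow was near WT CDAHFD. Slc25a13 was called lower in KO chow (-0.69 ± 0.15, adjusted p = 0.00351), WT CDAHFD (-0.86 ± 0.14, adjusted p = 1.84e-04) and KO CDAHFD (-1.17 ± 0.14, adjusted p = 1.44e-05). Without KO chow replicate 1, the KO chow value for Slc25a13 was -0.62 and just missed (adjusted p = 0.0518).

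Gls2 (chromosome 10 from 128194457 to 128210004), the liver glutaminase of periportal hepatocytes, had 368.8, 602.5, 615.3 and 601.8 CPM in WT chow, so that replicate 1 stood apart from 3 close values. It had 375.1 and 494.0 CPM in KO chow, 145.0, 111.6 and 169.9 CPM in WT CDAHFD and 183.8, 196.5 and 189.9 CPM in KO CDAHFD. Gls2 was called lower in WT CDAHFD (-1.94 ± 0.20, adjusted p = 5.20e-06) and KO CDAHFD (-1.53 ± 0.20, adjusted p = 3.24e-05) and not in KO chow (-0.33 ± 0.22, adjusted p = 0.245). Without WT chow replicate 1, the KO chow value for Gls2 was -0.47 and passed (adjusted p = 0.0401). Gls2 shares 97 exon bases with Spryd4 on the opposite strand, which had 8.75% as many counts, and the libraries do not keep the strand.

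Glud1 (chromosome 14 from 34310727 to 34345265), which is not confined to periportal cells, had 1550, 1568, 1718 and 1885 CPM in WT chow, 1136 and 1371 CPM in KO chow, 934.6, 884.2 and 1074 CPM in WT CDAHFD and 942.6, 916.0 and 710.9 CPM in KO CDAHFD. It was called lower in WT CDAHFD (-0.80 ± 0.14, adjusted p = 3.62e-04) and KO CDAHFD (-0.97 ± 0.14, adjusted p = 7.45e-05). In KO chow Glud1 just passed (-0.42 ± 0.16, adjusted p = 0.0467), and it lost the call in 9 of the 12 fits that left out a library, with adjusted p up to 0.315 without KO chow replicate 1.

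**Figure D2:**
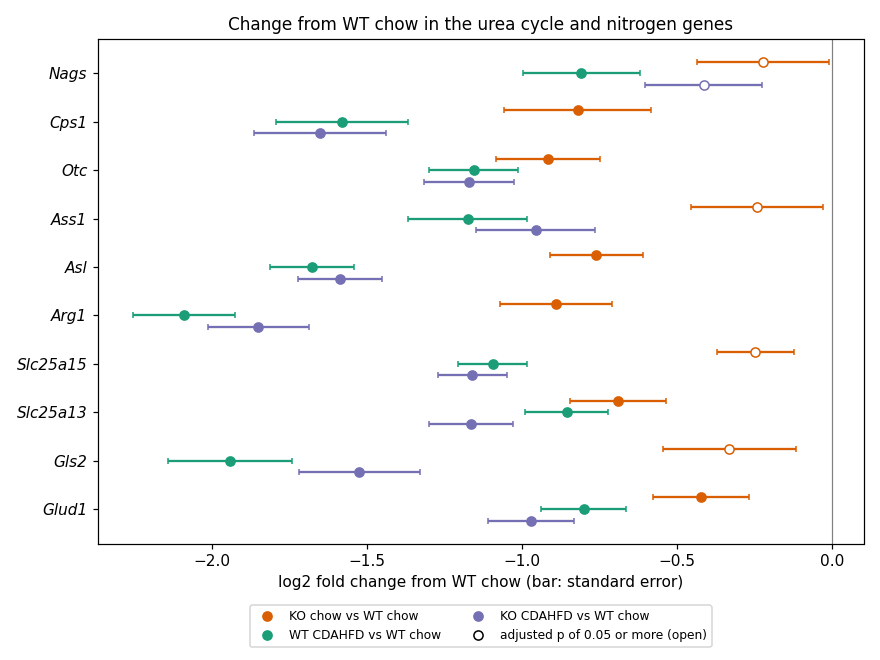
Log2 fold change from WT chow (x axis) of the 10 genes in the other 3 groups, with the standard error as a bar; filled points passed an adjusted p of 0.05. All points lie left of 0, from -0.22 for Nags in KO chow to -2.09 for Arg1 in WT CDAHFD, and the KO chow points lie nearest to 0 for every gene.

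The KO chow count rested on few libraries and on the scaling. Without WT chow replicate 1, 7 genes were called lower. Of all genes, 41% were then called in either direction, against 39.0% in the full fit. Leaving out a KO chow library leaves a single one in that group. The median of the 10 was then -0.39 without replicate 1 and -0.65 without replicate 2, against -0.56 in the full fit. With library size as the only scaling, the median of all genes rose by 0.40 in KO chow. There 3 of the 10 genes were then called lower, and 47.2% of all genes were called in either direction. The median of all genes rose by 0.51 in WT CDAHFD, with 7 genes called (59.1% of all genes), and by 0.57 in KO CDAHFD, with 8 (62.6%). Relative to that shift, Arg1 was at -2.04 in WT CDAHFD, -1.81 in KO CDAHFD and -0.88 in KO chow. In unscaled counts, the 10 genes took 0.99 to 1.4% of a WT chow library, 0.672 to 0.76% of a WT CDAHFD library, 0.743 to 0.769% of a KO CDAHFD library, and 0.938 and 1.26% of the KO chow libraries. The CDAHFD shares lay below every WT chow share, while the KO chow shares overlapped them.

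A further question was whether genotype mattered on CDAHFD. None of the 10 genes was called between KO CDAHFD and WT CDAHFD by edgeR's quasi-likelihood test, which called 0.357% of all genes, nor by DESeq2. Each test gave 1 gene with an unadjusted p under 0.05, which by edgeR was Slc25a13, with a log2 fold change of -0.31 ± 0.14 (adjusted p = 0.563). Gls2 (0.42 ± 0.20, adjusted p = 0.593) and Arg1 (0.24 ± 0.16, adjusted p = 0.74) were higher in all 3 KO CDAHFD libraries than in any WT CDAHFD library and did not pass. The median of the 10 was 0.04. These values do not show that the groups are alike, since a difference of the size of these standard errors could not be told from 0.

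The groups did differ from KO chow. Compared with WT CDAHFD, KO chow was called higher for 5 of the 10 genes, beside 2.71% of all genes. Every KO chow library lay above every WT CDAHFD library for all 10, including genes that were not called. The share of all genes separated in this way was not counted, so the separation has no background to be judged by. Gls2 was 3.06-fold higher (1.61 ± 0.22, adjusted p = 0.00146), Arg1 2.3-fold (1.20 ± 0.18, adjusted p = 0.00248), Asl 1.89-fold (0.92 ± 0.15, adjusted p = 0.00453), Slc25a15 1.8-fold (0.85 ± 0.13, adjusted p = 0.00244) and Ass1 1.91-fold (0.93 ± 0.22, adjusted p = 0.0282). Ass1 lost its call without either KO chow library, at 1.10 (adjusted p = 0.0656) without replicate 1 and 0.74 (adjusted p = 0.131) without replicate 2, and without WT CDAHFD replicate 1 (0.93, adjusted p = 0.0966) or 2 (0.85, adjusted p = 0.111). Cps1 missed the threshold (0.76 ± 0.24, adjusted p = 0.078) and passed without KO chow replicate 1 (1.09, adjusted p = 0.0475) or WT chow replicate 1 (0.75, adjusted p = 0.0437). Otc (0.24 ± 0.17, adjusted p = 0.413) and Slc25a13 (0.17 ± 0.16, adjusted p = 0.56) had the smallest differences. Nags (0.58 ± 0.22, adjusted p = 0.13) passed without KO CDAHFD replicate 3 (0.58, adjusted p = 0.0303).

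Within KO mice, CDAHFD lowered 4 of the 10 genes, beside 2.44% of all genes. These were Gls2 (-1.19 ± 0.22, adjusted p = 0.01), Arg1 (-0.96 ± 0.18, adjusted p = 0.0107), Slc25a15 (-0.91 ± 0.13, adjusted p = 0.00225) and Asl (-0.83 ± 0.15, adjusted p = 0.0096). The count was 7 without WT chow replicate 1, where Ass1, Cps1 and Glud1 also passed. Of all genes, 8.27% were then called in either direction, against 6.19% in the full fit. Without KO chow replicate 2, which leaves a single KO chow library, the median of the 10 was -0.47 against -0.77 in the full fit. There Arg1 (-0.88), Asl (-0.74) and Gls2 (-0.98) had smaller falls than in the full fit, as did Cps1 (-0.39) and Ass1 (-0.52). Cps1 (-0.83 ± 0.24, adjusted p = 0.0596), Glud1 (-0.55 ± 0.16, adjusted p = 0.0618) and Ass1 (-0.71 ± 0.22, adjusted p = 0.0775) missed the threshold closely, and Cps1 passed without KO chow replicate 1 (-1.15, adjusted p = 0.0401). Slc25a13 (-0.47 ± 0.16, adjusted p = 0.0955) passed without KO CDAHFD replicate 3 (-0.62, adjusted p = 0.0462). Otc (-0.25 ± 0.17, adjusted p = 0.401) and Nags (-0.19 ± 0.22, adjusted p = 0.658) overlapped between the groups.

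**Figure D3:**
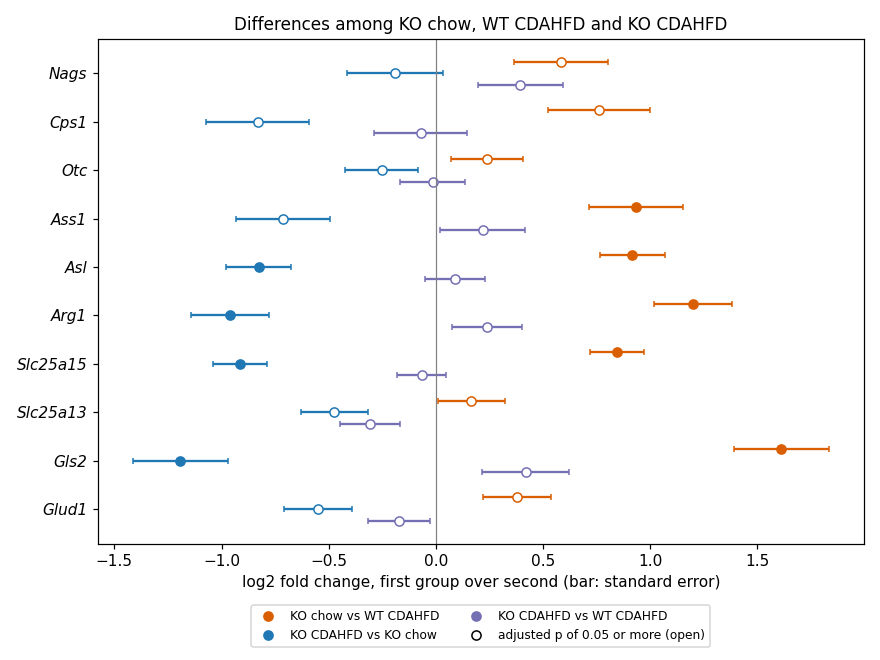
Log2 fold change (x axis, first group over second) of the 10 genes between KO chow and WT CDAHFD, KO CDAHFD and KO chow, and KO CDAHFD and WT CDAHFD, with the standard error as a bar; filled points passed an adjusted p of 0.05. KO chow over WT CDAHFD lies right of 0 for all 10 genes with 5 filled points, and no point of KO CDAHFD over WT CDAHFD is filled.

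The interaction of genotype and diet compares the diet effect in KO mice with that in WT mice. A positive value means that CDAHFD lowered the gene less in KO mice, whose chow level was already lower for 6 of the genes. It was positive for all 10 genes, with a median of 0.68, and 3 passed, beside 8.63% of all genes called higher. Arg1 had 1.13 ± 0.24 (adjusted p = 0.00482), Otc 0.90 ± 0.22 (adjusted p = 0.0109) and Asl 0.85 ± 0.20 (adjusted p = 0.00906). Otc lost its call without KO chow replicate 1 (0.78, adjusted p = 0.0557). Gls2 (0.75 ± 0.30, adjusted p = 0.0872) and Cps1 (0.75 ± 0.32, adjusted p = 0.112) passed without WT chow replicate 1, at 0.90 (adjusted p = 0.0104) and 0.87 (adjusted p = 0.0368), and Cps1 also without KO chow replicate 2 (1.19, adjusted p = 0.0226). Nags (0.62 ± 0.29, adjusted p = 0.154) passed without KO CDAHFD replicate 3 (0.85, adjusted p = 0.00819). Slc25a15 had the smallest value (0.18 ± 0.17, adjusted p = 0.489).

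Exon length here counts every annotated exon base of a gene once. It can exceed the length of the RNA expressed, so ranks and ratios per kb depend on it. Compared per kb of exon, so that genes of different length can be ranked, Ass1 was the most abundant of the set in WT chow, with 1720 ± 404 CPM per kb (SD, n = 4). Cps1 (1040 ± 246) and Arg1 (698 ± 139) followed, and neighbours in this order overlapped over these 3. Glud1 (399 ± 37.0) did not overlap Arg1 above it or Otc (165 ± 25.8) below it. Otc, Gls2 (157 ± 34.3), Asl (111 ± 18), Slc25a15 (86.2 ± 9.70) and Slc25a13 (82.5 ± 11.1) each overlapped the next, and Nags came last with 27.0 ± 2.25. In WT CDAHFD the order changed, since Glud1 (229 ± 23.3 CPM per kb, SD, n = 3) stood above Arg1 (164 ± 21) without overlap. Asl (34.7 ± 1.70) then stood ninth, below Slc25a15 (40.4 ± 2.41).

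Because the 10 genes did not fall equally, ratios of their levels per kb moved, and a ratio within a library does not depend on the scaling. Ass1 over Arg1 was 2.02 to 3.15 in the WT chow libraries and 3.57 and 4.13 in the KO chow libraries. It was 4.39 to 4.68 in KO CDAHFD and 4.27 to 4.94 in WT CDAHFD. Ass1 over Asl was 13.7 to 18.1 in WT chow and 20.4 to 25.2 in the other groups. Both ratios were higher in every library of the other groups than in WT chow. Nags over Cps1 was 1.85 to 3.59% in WT chow, 3.79 to 8.19% in KO CDAHFD and 4.06 to 5.09% in WT CDAHFD, while the KO chow libraries had 2.89 and 5.73%. Over the 12 libraries the 45 pairs of genes had a Pearson r of log2 CPM from 0.481 to 0.989 (median 0.914), a description that the group differences dominate. Of the deviations from group means the median r was 0.543, and 41 of 45 were positive.

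Several of these genes have a counterpart with a related reaction or transport role in other cells, another compartment or another pathway. Arg2 (chromosome 12 from 79130777 to 79156301), the mitochondrial arginase, was called higher in KO chow (2.11 ± 0.51, adjusted p = 0.00553), WT CDAHFD (1.74 ± 0.47, adjusted p = 0.00803) and KO CDAHFD (2.07 ± 0.47, adjusted p = 0.00248), but from very few reads. It had at most 0.275 CPM in a WT chow library and 0.415 to 0.873 CPM in the libraries of the other groups. Without KO chow replicate 2 the Arg2 value of KO chow was 1.68 and missed (adjusted p = 0.068). Arg2 shares 285 of its 1428 exon bases with Vti1b on the opposite strand, which had 20999 counts over the 12 libraries against 233 for Arg2, and without strand the reads of the overlap cannot be told apart. Slc25a12, the counterpart of Slc25a13, stayed between 16.7 and 23.4 CPM in all libraries and was not called (log2 fold changes from -0.15 to -0.10, adjusted p from 0.354 to 0.625). Cad, which makes carbamoyl phosphate for pyrimidines, was not called either, and its WT chow values of 49.6, 25.8, 13.6 and 12.8 CPM spread widely. Without WT chow replicate 1, Cad passed in KO chow (0.78, adjusted p = 0.0299) and WT CDAHFD (0.73, adjusted p = 0.0211). Slc25a2 had 56 counts over the 12 libraries and was not tested.

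Glul, glutamine synthetase, the pericentral counterpart of the urea cycle in ammonia disposal, is not one of the 10 genes and was singled out after its values were seen. It had 1150, 1061, 1206 and 1114 CPM in WT chow and 173.5 and 199.1 CPM in KO chow. WT CDAHFD held 1086, 1066 and 1144 CPM, and KO CDAHFD 1120, 1033 and 1205 CPM. KO chow stood alone, and the other 3 groups overlapped. Glul fell by 2.60 on the log2 scale in KO chow (adjusted p = 7.34e-08) and was not called in WT CDAHFD, at -0.04 (adjusted p = 0.743), or in KO CDAHFD, at -0.02 (adjusted p = 0.906). With library size as the only scaling Glul passed as higher in both CDAHFD groups, at up to 0.60. KO chow was lower than WT CDAHFD by -2.56 (adjusted p = 2.22e-06), the opposite sign to all 10 urea cycle and nitrogen genes in that comparison. The summed CPM of the 10 genes over that of 14 pericentral markers was 3.17 and 3.43 in KO chow, 1.10 to 1.59 in WT chow, 0.669 to 0.79 in KO CDAHFD and 0.792 to 0.904 in WT CDAHFD.

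**Figure D4:**
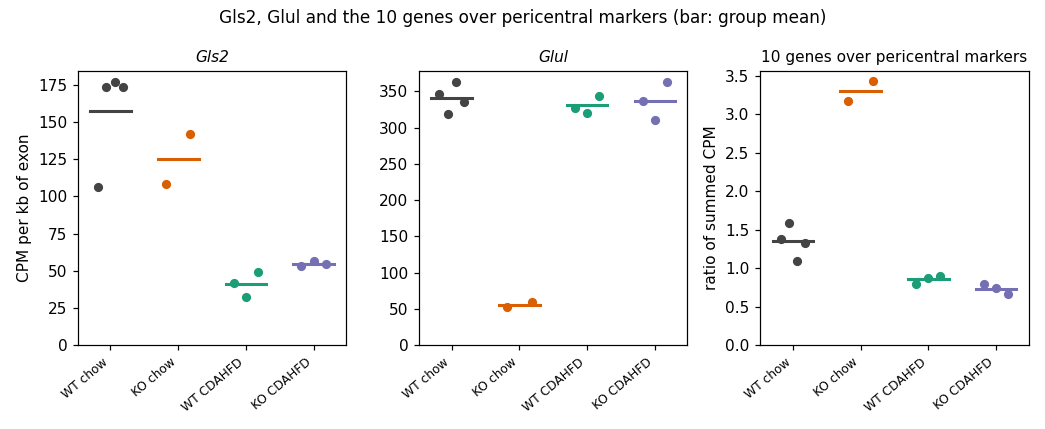
Levels of Gls2 and Glul in CPM per kb of exon, and the summed CPM of the 10 genes over that of the 14 pericentral markers, in the 12 libraries (all y axes from 0); points are libraries and bars group means. Gls2 is low in both CDAHFD groups, Glul is low only in KO chow, at 173.5 and 199.1 CPM before division by length, and the ratio is highest in KO chow, at 3.17 and 3.43.

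The pericentral list was lower in KO chow for 9 of 14 genes and higher for 1 (median -0.96), and it was split in WT CDAHFD (5 lower, 5 higher, median -0.02) and KO CDAHFD (2 lower, 6 higher, median 0.03). In WT CDAHFD the pericentral gene with the largest rise was Slc13a3, a dicarboxylate transporter (2.19, adjusted p = 1.25e-07), and the one with the largest fall was Tbx3, a transcription factor (-1.29, adjusted p = 0.00111). Against WT CDAHFD, KO chow was lower for 9 of the 14 and higher for none. Leaving out a library gave 8 or 9 lower in KO chow against WT chow, and 5 against WT CDAHFD without KO chow replicate 1. Scaled by library size only, the list was mostly higher on CDAHFD, with 8 higher and 2 lower in WT CDAHFD and 10 higher and 1 lower in KO CDAHFD. The split in WT CDAHFD was also less steady when a library was left out, with 3 lower without WT CDAHFD replicate 1 or 2, as was that in KO CDAHFD, with 1 lower without WT chow replicate 3 or 4 or KO CDAHFD replicate 1. The other periportal markers, 15 genes outside the set, were lower for 11 in WT CDAHFD (median -1.27), 10 in KO CDAHFD (median -1.22) and 4 in KO chow (median -0.30), with 2, 2 and 3 higher. In KO chow the balance turned with library size as the only scaling, at 2 lower and 4 higher, and leaving out a library gave 2 to 6 lower, with 2 lower and 2 higher without KO chow replicate 1. Etnppl, an ethanolamine phosphate lyase, had the largest fall in WT CDAHFD (-2.91, adjusted p = 1.21e-05; KO chow -0.30, adjusted p = 0.52). Aldh1b1, a mitochondrial aldehyde dehydrogenase, had the largest rise (1.22, adjusted p = 4.81e-04; KO chow 2.44, adjusted p = 6.70e-06).

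**Figure D5:**
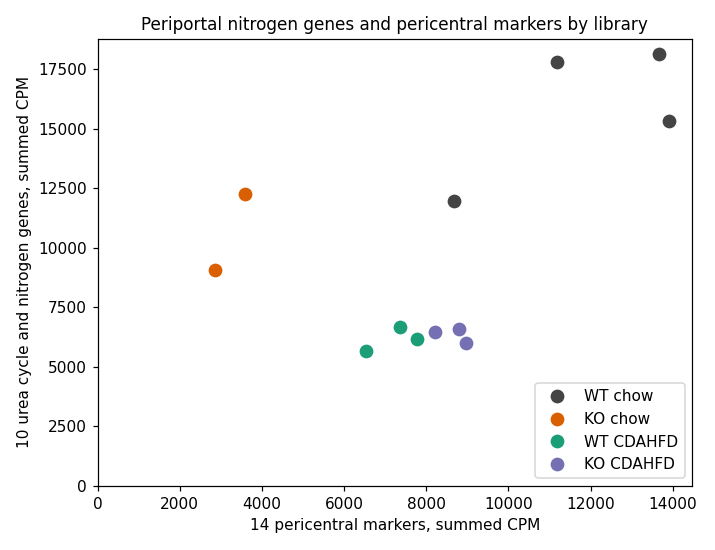
Summed CPM of the 10 urea cycle and nitrogen genes (y axis) against the summed CPM of 14 pericentral markers (x axis) in the 12 libraries, 1 point each, coloured by group. The KO chow points, at 2854 and 3578 CPM, lie far to the left of all others, and the CDAHFD points lie at the bottom, between 5679 and 6656 CPM.

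Beyond the cycle, 35 of 36 listed genes of amino acid and ammonia handling were tested. In KO chow 16 were lower and 5 higher, in WT CDAHFD 20 lower and 6 higher, and in KO CDAHFD 19 lower and 5 higher, with medians of -0.57, -0.72 and -0.66. Scaled by library size only, the lower and higher counts were 9 and 6 in KO chow, 12 and 9 in WT CDAHFD and 10 and 12 in KO CDAHFD, where the balance turned. This list shares Glul, Oat, Slc1a2, Slc1a4 and Rhbg with the pericentral list and Hal, Sds and Uroc1 with the periportal one. Leaving out KO chow replicate 1 brought the lower count of KO chow to 9, and leaving out any library gave 15 to 20 in KO CDAHFD and 18 to 21 in WT CDAHFD. Car5a, the mitochondrial carbonic anhydrase that provides bicarbonate to CPS1, was lower in KO chow (-2.04, adjusted p = 2.71e-05), WT CDAHFD (-1.76, adjusted p = 1.17e-05) and KO CDAHFD (-1.52, adjusted p = 3.45e-05). Its level was 74.8 CPM in WT chow and 18.2 to 26.1 CPM as the mean of the other groups. Sirt3, a mitochondrial deacetylase, was lower as well, by 0.99 to 1.29 on the log2 scale, while Sirt5, the deacylase that acts on CPS1, was not called (-0.17, -0.16 and -0.26 with adjusted p of 0.406, 0.321 and 0.114), although it passed as higher in both CDAHFD groups with library size as the only scaling. Car5a, Sirt3 and Sirt5 were named after their values were seen.

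Among the same 35 genes, Hal, which releases ammonia from histidine, had the largest fall in WT CDAHFD (-2.61, adjusted p = 4.23e-06) and was at -0.93 in KO chow (adjusted p = 0.0197). Hal lost the call in KO chow in the fit without KO chow replicate 1 (-0.59, adjusted p = 0.225). Aldh18a1, which makes the proline and ornithine precursor from glutamate, had the largest rise, from 1.62 CPM in WT chow to 11.6 CPM in WT CDAHFD (2.85, adjusted p = 2.99e-06) and 19.0 CPM in KO chow (3.56, adjusted p = 1.78e-06). The other genes higher in all 3 groups were Pycr1, Asns and Slc1a4, which make proline, make asparagine and carry neutral amino acids. Each of Pycr1, Asns and Slc1a4 rose by between 1.81 and 2.82 on the log2 scale in KO chow and WT CDAHFD, and these 3 were named after their values were seen.

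Of 15 listed regulators of urea cycle genes, such as the glucagon receptor, glucocorticoid receptor and liver transcription factors, 9 were lower in WT CDAHFD and 11 each in KO chow and KO CDAHFD, and none was higher. This list includes Ppara, the deleted gene. Klf15, a factor of amino acid breakdown, had the largest fall in WT CDAHFD (-1.58, adjusted p = 2.75e-05) followed by KO CDAHFD (-1.28, adjusted p = 1.32e-04) and KO chow (-0.85, adjusted p = 0.0086). In the fit without KO chow replicate 1 the KO chow count was 5, and Klf15 was at -0.69 and not called (adjusted p = 0.106). Leaving out any library gave 8 to 12 regulators lower in KO CDAHFD and 8 to 10 in WT CDAHFD. Scaled by library size alone, 6 were lower in KO chow and 4 in each CDAHFD group, and 3 were higher in WT CDAHFD and 2 in KO CDAHFD.

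Markers of hepatocytes as a whole were lower in the same libraries. Of 13 tested, 12 were lower in WT CDAHFD (median -0.98), 11 in KO CDAHFD (median -0.97) and 8 in KO chow (median -0.67). The summed CPM was 134500 to 141900 in WT chow, 112600 and 123600 in KO chow, 68660 to 87950 in KO CDAHFD and 73960 to 85790 in WT CDAHFD. Without either KO chow library the KO chow count was 5, and with library size as the only scaling 1 was lower and 3 higher. Serpina1c, a secreted protease inhibitor, had the largest fall in WT CDAHFD (-2.37, adjusted p = 5.61e-06). The 10 urea cycle and nitrogen genes as a share of this sum were 8.90 to 12.8% in WT chow, 8.04 and 9.92% in KO chow, 7.49 to 8.74% in KO CDAHFD and 7.18 to 7.86% in WT CDAHFD. The CDAHFD shares lay below all WT chow shares, and the KO chow shares overlapped WT chow. In bulk liver, fewer hepatocytes and less of these RNAs per hepatocyte cannot be told apart.

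Markers of macrophages, stellate cells and fibroblasts, cholangiocytes, lymphocytes and neutrophils, and cycling cells rose, whereas the endothelial and red blood cell genes that passed on CDAHFD were lower. Of 10 macrophage markers 9 were higher in each of the 3 groups, with a summed level of 313 to 582 CPM in WT chow, 1204 and 1403 CPM in KO chow, 2083 to 2887 CPM in WT CDAHFD and 2128 to 2337 CPM in KO CDAHFD. Of 9 stellate cell and fibroblast markers 7 were higher in KO CDAHFD and 6 in each of the others, of 5 cholangiocyte markers 4 in KO chow and 5 in each CDAHFD group, of 7 lymphocyte and neutrophil markers 4 in each group, and of 5 genes of cycling cells all 5. When KO chow replicate 1 was left out, the KO chow counts for cholangiocytes and for lymphocytes and neutrophils were 2 each. The largest rises of these lists in WT CDAHFD were of Gpnmb, Col1a1, Spp1, Cd8a and Ccnb1. Of 6 endothelial markers 1 was higher in KO chow, a call lost without WT chow replicate 3 or 4 or KO chow replicate 2, and 3 were lower in both CDAHFD groups. Kdr fell most in WT CDAHFD (-1.36, adjusted p = 0.00238), and 1 endothelial marker was lower in KO CDAHFD without KO CDAHFD replicate 1 or 2. When libraries were scaled by size only, 1 endothelial marker was higher and 0 lower in each CDAHFD group, and Kdr lost its call in WT CDAHFD (-0.80, adjusted p = 0.0504) and KO CDAHFD (-0.39, adjusted p = 0.304). Of 5 red blood cell genes 5 were lower in WT CDAHFD, where Alas2 fell most (-1.62, adjusted p = 1.44e-07), with a count of 2 without WT CDAHFD replicate 2 and 3 without WT CDAHFD replicate 1 or WT chow replicate 1 or 2, and of 1 with library size as the only scaling. In KO chow 1 was lower and 1 higher, with 4 higher without WT chow replicate 1, 3 without KO chow replicate 2 and 0 without WT chow replicate 3 or 4 or KO chow replicate 1, and in KO CDAHFD 1 was lower. Of 10 clock genes 1 was lower in KO chow, a call lost without KO chow replicate 1, and 1 in KO CDAHFD. The part of these cells in the fall of the 10 genes was not tested.

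The genes outside the set whose levels ran most alike with the mean of the 10 over the 12 libraries were Hgd (Pearson r = 0.9913), Amdhd1 (0.9876), Ces2a (0.9863), Gnmt (0.9857) and Hal (0.9856). HGD acts in tyrosine breakdown, AMDHD1 and HAL in histidine breakdown and GNMT in methionine metabolism, while CES2A is a carboxylesterase. These r values span 4 groups that differ in level and describe these libraries only.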

How the data were processed

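The authors aligned reads of poly-A selected, non-directional libraries to GRCm38 with STAR 2.7.3a after FastQC 0.11.5, and deposited raw counts per Ensembl gene; the counting program and annotation release are not given in the sources used here. GENCODE M21 gave the symbols, positions and exon lengths. Groups came from each sample's title, genotype and treatment. The labels do not say that each library is a separate mouse, and p-values measure only the spread between libraries. Replicate numbers did not pair the samples.

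Genes were kept with filterByExpr of edgeR 4.0.16 (R 4.3.3, limma 3.58.1), scaled by TMM and fitted over the 12 libraries by a quasi-likelihood model with 4 group means, so that KO chow, with 2 libraries, shares the spread of the others. The quasi-likelihood p of edgeR were adjusted (Benjamini-Hochberg) over all 17358 genes, and a gene was called under an adjusted p of 0.05. SE is the log2 fold change over the square root of F. CPM uses TMM library sizes. The steps were tested on simulated data. DESeq2 1.42.0, other scalings, no filter, only the groups compared, a replicate block, a clock covariate and leaving out libraries were alternatives, and a fit of the libraries with a clock score above 0 was chosen after seeing the data.

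The 10 genes and the lists were chosen with earlier results of these data known. Genes named are the 10, their counterparts, from each other list the called gene with the largest rise and fall in WT CDAHFD, and the 5 genes most alike, unless stated otherwise. The lists also held 5 sex check genes, for which all libraries matched male mice. A further counterpart, outside these lists, is not reported here. Promoters are from RefSeq on GRCm38.p6. Figures were drawn with matplotlib 3.10.9 in Python 3.11.15.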

Additional observations from a re-analysis of the deposited data

Results flagged for a closer look

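Gls2 in WT chow was marked because WT chow replicate 1, at 368.8 CPM, stood far from the other 3 libraries, at 601.8 to 615.3 CPM. The gap was 0.945 of the range of the group. Of the 13 genes looked at in this way (the 10 genes and 3 counterparts) 1 was marked, and chance marks about 1 in 20 groups. Leaving this library out brought the KO chow value for Gls2 to -0.47 (adjusted p = 0.0401).

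The effect of CDAHFD differed between genotypes, by the interaction test, for 3 of the 10 genes. Of all genes, 23.1% were called in this test, 8.63% with a positive value and 14.5% with a negative one. The diet effect in KO mice less that in WT mice was 0.90 for Otc (0.903), 0.85 for Asl and 1.13 for Arg1 on the log2 scale, so that the fall was smaller in KO mice. In WT mice the diet effect was -1.16 for Otc, -1.68 for Asl and -2.09 for Arg1, and in KO mice -0.25, -0.83 and -0.96. Without KO chow replicate 1, which leaves a single KO chow library, the interaction value of Otc was 0.78.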

How the results depend on the processing

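All 10 genes were lower in WT CDAHFD than in WT chow under every alternative run, with 10 called except with library size as the only scaling, which called 7, and 8 to 10 were called in KO CDAHFD. The share of all genes called ran from 27.9% to 59.1% in WT CDAHFD and from 28.9% to 62.6% in KO CDAHFD. Such shares count calls in either direction, here and in the rest of this section. The KO chow count moved from 6 to 3 when scaled by library size only, while the share of all genes called went from 39.0% to 47.2%. With both KO chow libraries kept, leaving out a library gave 5 to 7, beside 34.9% to 41% of all genes. Fitting only the groups compared gave 4 in KO chow, beside 30.8%. With a single KO chow library, the median of the 10 was -0.39 without replicate 1 and -0.65 without replicate 2. For KO CDAHFD against KO chow the count was 4, beside 6.19% of all genes called. It became 7 with DESeq2 (11% of all genes), 7 without the filter (4.45%) and 7 with the clock covariate (9.62%). With both KO chow libraries kept, leaving out a library gave 4 to 7, beside 2.65% to 8.27% of all genes. The median of the 10 was -0.77 in the full fit. With a single KO chow library it was -0.51 with only libraries of a clock score above 0 and -0.47 without KO chow replicate 2. The interaction count was 3, beside 23.1% of all genes. With both KO chow libraries kept, leaving out a library gave 3 to 5, beside 17.8% to 26.7% of all genes. The median interaction of the 10 was 0.68 in the full fit. With a single KO chow library it was 0.81 with only libraries of a clock score above 0 and 0.48 without KO chow replicate 1. With both KO chow libraries kept, KO chow against WT CDAHFD ran from 4 to 6, beside 2.08% to 14.4% of all genes. KO CDAHFD against WT CDAHFD stayed at 0, beside 0.15% to 1.41% of all genes. Same-numbered libraries did not deviate together (r from -0.242 to 0.266, above 0.1 in 3 of 15 pairs), and the fit with the replicate block called, against WT chow, 5 genes in KO chow, 9 in KO CDAHFD and 10 in WT CDAHFD, and 0 and 4 for KO CDAHFD against WT CDAHFD and KO chow, 5 for KO chow against WT CDAHFD and 3 in the interaction, with Glud1 in KO chow the lost call (-0.36, adjusted p = 0.168).

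Signs that turned were all of values not called. With library size as the only scaling these were, in KO chow, Ass1 0.17, Nags 0.18, Slc25a15 0.16 and Gls2 0.0796, in KO CDAHFD Nags 0.18, in KO CDAHFD against WT CDAHFD Otc 0.0318, in KO CDAHFD against KO chow Nags 0.0011, and in the interaction Slc25a15 -0.17 and Glud1 -0.11. Otc in KO CDAHFD against WT CDAHFD was also 0.074 with only libraries of a clock score above 0 and ran from -0.122 to 0.0757 when a library was left out, and Nags in KO CDAHFD against KO chow ran from -0.371 to 0.0456. The cause was not tested, other than for the scaling, which shifts all genes. The fit of libraries with a clock score above 0 holds a single KO chow library, which is assumed to vary like the other groups, so its KO chow and interaction values rest on 1 sample. With 2 libraries, KO chow is the group measured least precisely.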

Other observations

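Histidine breakdown releases ammonia and glutamate and is carried by Hal, Uroc1, Amdhd1 and Ftcd, 4 genes picked from the nitrogen list after their values were seen. Their mean levels were 648.7, 524.0, 395.2 and 697.1 CPM in WT chow, 341.5, 303.5, 253.9 and 349.6 CPM in KO chow, 106.6, 214.3, 136.6 and 220.3 CPM in WT CDAHFD and 137.2, 225.4, 145.6 and 244.4 CPM in KO CDAHFD. All 4 passed as lower in each group against WT chow, with log2 fold changes of -0.64 for Amdhd1 to -0.996 for Ftcd in KO chow and of -1.29 for Uroc1 to -2.61 for Hal in WT CDAHFD. Without KO chow replicate 1, Hal (-0.59, adjusted p = 0.225), Uroc1 (-0.57, adjusted p = 0.141) and Amdhd1 (-0.52, adjusted p = 0.197) lost the KO chow call. With library size as the only scaling Hal (-0.52), Uroc1 (-0.38) and Amdhd1 (-0.23) lost it too. Amdhd1 was also lost in KO chow without WT chow replicate 2 (-0.55, adjusted p = 0.0584) or 3 (-0.60, adjusted p = 0.0505) and with the replicate block (-0.65, adjusted p = 0.0655). It was lost too in fits with a single KO chow library, at -0.75 without KO chow replicate 2 and -0.71 with only libraries of a clock score above 0.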
